A study of Mus musculus with 12 samples.

Results

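The genes described are 10 members of the Notch pathway, chosen by Ensembl gene ID as receptors (Notch1, Notch2 and Notch3), ligands (Jag1 and Dll1) and transcriptional targets (Hes1, Hey1, Hey2, Heyl and Nrarp). They are 10 of the 56748 gene IDs in the deposited tables, and all 10 were among the 14338 genes that passed the filter on low counts. The members were chosen with earlier results of these data known. Their counts of calls beside those of all genes are therefore descriptions and no independent test. RNA was sequenced from mesenchymal stem cells of mouse adipose tissue, which are stromal cells of fat, held in DMEM with fetal bovine serum and antibiotics. The 4 groups were 3D spheroids after 24 h of culture, attached 2D single cells after 24 h, 3D spheroids at 0 h and attached 2D single cells at 0 h, with 3 libraries in each. The labels give no strain, sex or age of the mice, no time over which the spheroids had formed before 0 h, and no statement that the replicates were separate cultures, so every p-value here reflects variation among these libraries that may be only technical. The labelled cell type was not checked against marker genes, because the tables carry IDs without gene names and only these 10 IDs came with names.

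Notch receptors are single-pass membrane proteins that bind ligands of the Jagged and Delta-like families on a neighbouring cell, so the pathway reads cell contact. Ligand binding leads to cleavage of the receptor, and the freed intracellular part enters the nucleus and, with the DNA-binding protein RBPJ, turns on genes such as the Hes and Hey repressors and Nrarp, which encodes a feedback inhibitor of the same complex. In mesenchymal stromal cells the pathway is known for its part in the choice between self-renewal and bone, fat or vascular mural fates.

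Promoter sequences are shown for 3 members that were higher in spheroids at 24 h (Notch1, Jag1 and Nrarp) and for the target Hey2. Hey2 had low counts and was not called in any comparison of the main fit, though 6 of 21 alternative settings called it at 0 h. It is therefore not an unchanged control for the others. The sequences come from RefSeq on build GRCm38.p6, an older build than the GRCm39 named for the counts. Each is the 250 bases before the gene's start in the gene's own direction. Of the 10 members, 7 matched an entry; Hes1, Hey1 and Heyl are named only. Capitals mark the letters GTGGGAA, the core that RBPJ prefers, and the E-box-like letters CACGTG or CACGCG that Hes and Hey repressors can bind, searched on both strands.
Notch1 (chr2:26503823-26504072, minus strand): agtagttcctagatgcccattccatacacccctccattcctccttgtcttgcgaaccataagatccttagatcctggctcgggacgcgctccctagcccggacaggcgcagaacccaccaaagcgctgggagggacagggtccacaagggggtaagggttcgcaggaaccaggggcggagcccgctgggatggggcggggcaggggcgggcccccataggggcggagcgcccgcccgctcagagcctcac
Jag1 (chr2:137116521-137116770, minus strand): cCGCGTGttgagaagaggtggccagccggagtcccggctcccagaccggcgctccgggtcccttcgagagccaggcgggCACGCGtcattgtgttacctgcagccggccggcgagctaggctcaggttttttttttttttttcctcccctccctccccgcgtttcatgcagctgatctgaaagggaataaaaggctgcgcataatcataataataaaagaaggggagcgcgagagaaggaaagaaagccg
Nrarp (chr2:25180508-25180757, plus strand): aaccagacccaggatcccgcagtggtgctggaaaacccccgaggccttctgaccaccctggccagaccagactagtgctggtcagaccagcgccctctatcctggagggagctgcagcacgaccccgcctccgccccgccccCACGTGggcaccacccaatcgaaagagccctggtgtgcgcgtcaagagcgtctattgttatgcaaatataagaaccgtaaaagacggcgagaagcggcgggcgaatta
Hey2 (chr10:30842784-30843033, minus strand): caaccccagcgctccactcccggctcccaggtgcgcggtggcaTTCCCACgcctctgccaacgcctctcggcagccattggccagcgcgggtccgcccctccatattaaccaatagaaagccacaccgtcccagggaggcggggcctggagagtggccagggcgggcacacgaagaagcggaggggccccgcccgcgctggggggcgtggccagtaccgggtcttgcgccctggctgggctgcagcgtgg

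Of these windows, the RBPJ core was found only in that of Hey2, on the reverse strand between 207 and 201 bases before the start, and 5.42% of 32851 RefSeq promoters of the same length held it. Nrarp held CACGTG between 108 and 103 bases before its start, which 6.02% of promoters did, and Jag1 held CACGCG at 2 places, which 7.62% of promoters held at least once. The Notch1 window held none of these letters. The windows of the other matched members, which are not printed, held no RBPJ core either. Those of Notch2 and of 1 of the 2 listed starts of Dll1 held CACGCG, and those of Notch3 and the other Dll1 start held neither E-box form. The N-box letters CACNAG (N for any base) were also searched but are not marked. They were in the windows of Notch1, Notch2, Notch3 and Nrarp, and 36.7% of promoters held them. All windows were above the median promoter in G and C, from 56% at the second Dll1 start to 72% at Notch2. Over all promoters the median was 52.4%, with quartiles of 45.2% and 61.2%, and the windows of Jag1 (57.2%) and the second Dll1 start lay between these quartiles.

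Library totals lay between 10182600 and 17109600 expected counts, which are read estimates per gene and need not be whole. Levels within a gene are given as CPM, which scales the counts of a library to a fixed total with TMM factors, and levels between genes as the authors' TPM, which also divides by transcript length. A gene was called where edgeR's quasi-likelihood test across all 14338 genes gave a Benjamini-Hochberg adjusted p under 0.05, and fold changes are from that fit. Fewer expressing cells and less RNA per cell cannot be told apart in these bulk libraries. The comparisons share libraries, since each group enters both a comparison of cultures and one of times. Dll1, Hey2 and Nrarp passed the filter (at least 0.795 CPM in 3 libraries) through few libraries, all of them 3D. These were 3 for Dll1, all at 24 h, 4 for Hey2 (1 at 24 h and 3 at 0 h) and 5 for Nrarp (3 at 24 h and 2 at 0 h). They passed only by being higher in those groups, so their calls as higher there are not independent of the filter. Counts are therefore also given for the 5 genes above that level in all 12 libraries (Notch1, Notch2, Notch3, Jag1 and Hes1). Expected counts were not whole (tolerance 0.005) in 12 libraries for Notch1, 8 for Notch3, 5 for Nrarp and 2 for Notch2, which RSEM gives where it divides reads among genes, so the levels of these genes are uncertain to that extent. By RefSeq, Notch1, Jag1 and Nrarp lie on chromosome 2, Notch2 and Hey1 on chromosome 3, Notch3 and Dll1 on chromosome 17, Hes1 on chromosome 16, Hey2 on chromosome 10 and Heyl on chromosome 4. In that annotation 2 other genes overlap Notch1, 2 overlap Notch3 and 1 each overlap Notch2, Hey1 and Hey2. The labels name a SMART-seq kit and a stranded TruSeq kit, and whether counting used strand is not given in the sources used here, so reads of the overlapping genes may not have been kept apart.

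**Figure D1:**
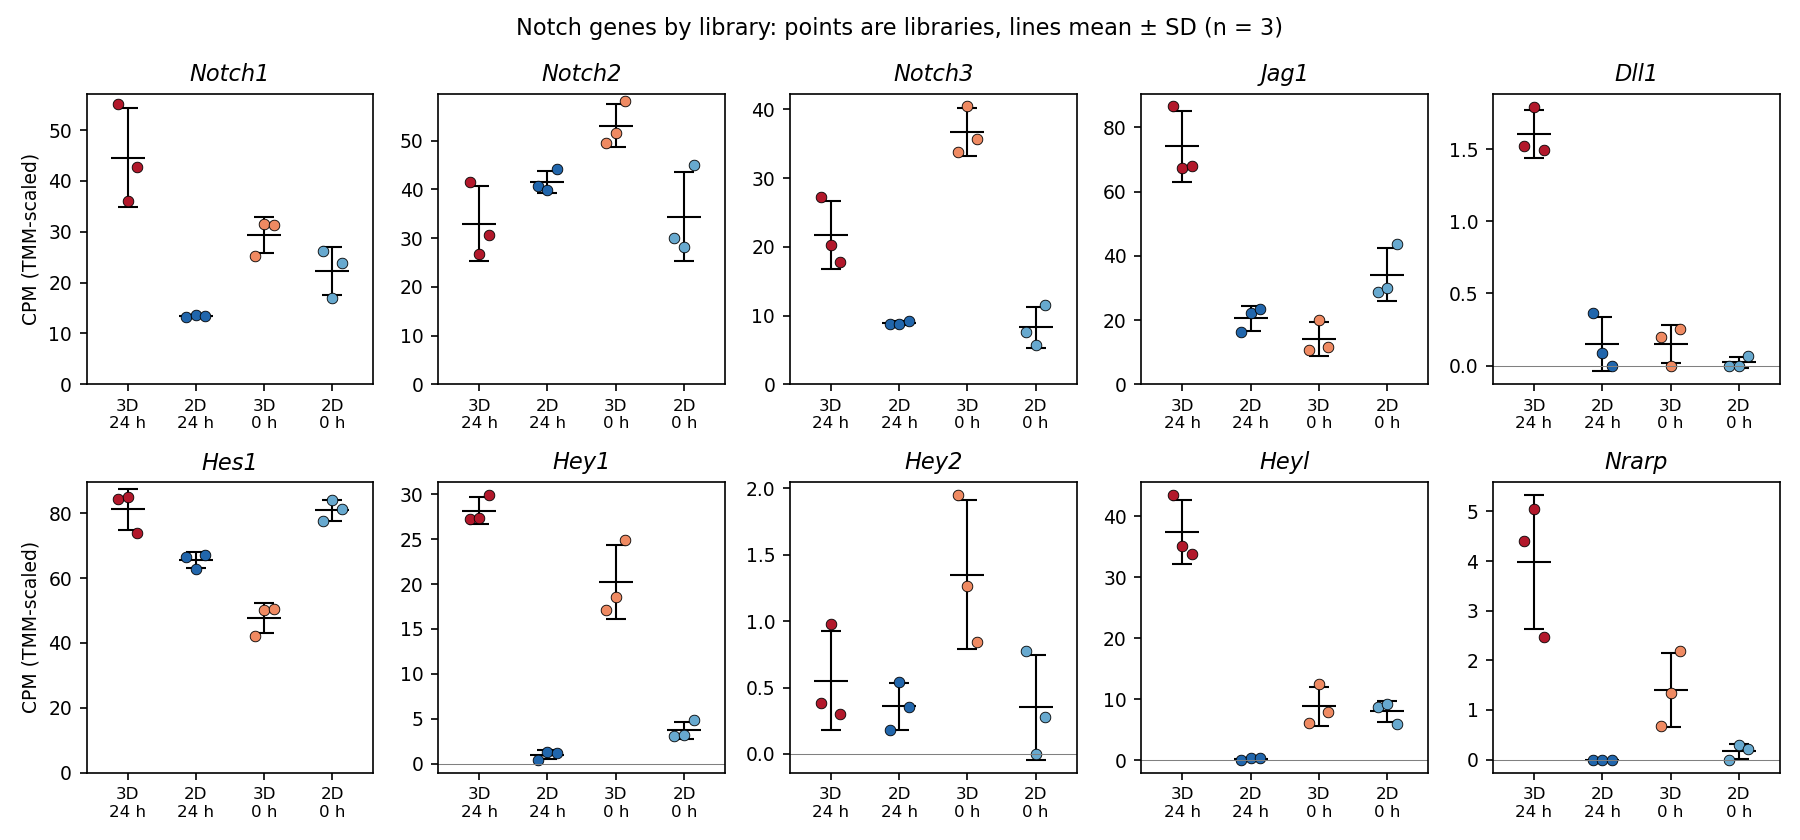
Level of each Notch gene in every library, in TMM-scaled CPM (vertical axis, 1 scale per panel), for 3D and 2D cultures at 24 h and 0 h; points are libraries and lines the mean ± SD (n = 3). After 24 h, Heyl averaged 37.5 CPM in 3D and 0.244 CPM in 2D and Hey1 28.2 CPM in 3D and 1.00 CPM in 2D, while Hes1 stayed between 42.3 and 85.0 CPM in all 12 libraries.

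Hes1 was the most abundant of the 10 genes per transcript length in every group. Its mean was 113 ± 16.2 TPM in 3D and 89.1 ± 4.83 TPM in 2D after 24 h, and 59.6 ± 5.92 TPM in 3D and 93.0 ± 9.24 TPM in 2D at the start (SD, n = 3). In spheroids at 24 h the order after Hes1 was Jag1 (22.7 ± 4.49 TPM), Hey1 (20.9 ± 1.5 TPM) and Heyl (14.3 ± 3.21 TPM), and Jag1 and Hey1 lay within their spread. The receptors came next in those libraries, with Notch2 at 8.42 ± 0.925 TPM, Notch1 at 7.94 ± 2.39 TPM and Notch3 at 6.25 ± 2.27 TPM, which did not differ beyond their spread. Nrarp (2.69 ± 0.912 TPM), Dll1 (1.96 ± 0.369 TPM) and Hey2 (0.373 ± 0.234 TPM) were the least abundant. In 2D at 24 h the order after Hes1 was Notch2 (9.05 ± 0.347 TPM), Jag1 (6.09 ± 1.49 TPM), Notch1 (2.68 ± 0.390 TPM) and Notch3 (1.81 ± 0.140 TPM), and every Hey gene and Nrarp averaged 1.05 TPM or less.

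After 24 h of culture the question was how Notch transcripts in spheroids differed from those in attached cells. Of the 10 Notch genes, 8 were higher in 3D and none was lower, where 19.6% of all genes tested were called higher and 22.8% lower. The highest folds were in the targets Heyl, Nrarp and Hey1, but the target Hes1 had the lowest called fold and the target Hey2 was not called. The ligands and the receptors Notch1 and Notch3 lay between. Jag1 (log2 fold change 1.84 ± 0.22, SE) and Notch1 (1.74 ± 0.18) were within their standard errors of each other. The median log2 fold change of the 10 genes was 1.79, against -0.00175 for all genes tested. Setting Nrarp at its ratio to a floor of 3 counts could not move this median, since Nrarp stayed above the middle genes either way. Among the 5 genes above the filter level in all libraries, 4 were higher and 1 was not called, with a median of 1.29.

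Among the receptors at 24 h, Notch1 (ENSMUSG00000026923) had 55.1, 36.0 and 42.8 CPM in the 3D libraries, against 13.2, 13.7 and 13.4 CPM in the 2D libraries. No 3D library fell into the 2D range, and Notch1 was 3.33-fold higher in 3D (log2 fold change 1.74 ± 0.18, SE; edgeR adjusted p = 6.7e-07). Notch3 (ENSMUSG00000038146), the receptor best known from vascular smooth muscle cells and pericytes, had 27.3, 20.2 and 17.7 CPM in 3D, against 8.80, 8.73 and 9.23 CPM in 2D. The groups did not overlap, and Notch3 was 2.44-fold higher in 3D (log2 fold change 1.29 ± 0.22, SE; edgeR adjusted p = 0.00013). Notch2 (ENSMUSG00000027878) had 41.5, 26.7 and 30.7 CPM in 3D, against 40.6, 39.9 and 44.1 CPM in 2D, with the highest 3D library inside the 2D range. Its log2 fold change was -0.33, with a 95% interval of -0.70 to 0.05, and it was not called (edgeR adjusted p = 0.15). Without 3D 24 h replicate 1, the library with the highest Notch2 level of its group, the log2 fold change was -0.51 and was called (edgeR adjusted p = 0.038).

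Both ligands were called higher in spheroids at 24 h, though Dll1 passed the filter through those 3D libraries alone. Jag1 (ENSMUSG00000027276), which encodes the ligand Jagged1, had 86.7, 67.4 and 68.0 CPM in 3D, against 16.1, 22.3 and 23.3 CPM in 2D. Every 3D library lay above every 2D library, by 3.59-fold (log2 fold change 1.84 ± 0.22, SE; edgeR adjusted p = 3.4e-06). Dll1 (ENSMUSG00000014773), which encodes Delta-like 1, was close to the detection limit, with 28, 22 and 20 counts in the 3D libraries and 4, 1 and 0 counts in the 2D libraries. The ratio of the summed counts was 11.6, with an exact 95% counting interval of 4.73 to 36.7 that covers counting error only (edgeR adjusted p = 0.0046). Its fitted log2 fold change of 3.42 rested on the few 2D counts: it was 5.07 without 2D 24 h replicate 1, the library with 4 of the 5 counts, and 2.77 without 2D 24 h replicate 3, and it was called in both cases.

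The targets differed widely in how far they moved at 24 h. Heyl (ENSMUSG00000032744), a repressor of the Hey family, had 43.5, 35.1 and 33.8 CPM in 3D, against 0.0907, 0.360 and 0.282 CPM in 2D. These were 1681 counts over the 3D libraries and 9 over the 2D libraries, a ratio of 154 with an exact 95% counting interval of 81.1 to 338 (log2 fold change 7.19 ± 0.38, SE; edgeR adjusted p = 1.2e-10). Hey1 (ENSMUSG00000040289), another repressor of that family, had 27.3, 27.3 and 29.9 CPM in 3D, against 0.454, 1.35 and 1.20 CPM in 2D. It was 27.5-fold higher in 3D with no overlap (log2 fold change 4.78 ± 0.29, SE; edgeR adjusted p = 6.0e-10). Nrarp (ENSMUSG00000078202) had 81, 62 and 33 counts in the 3D libraries after rounding and 0 counts in each 2D library. Against a floor of 3 counts set for the 2D group it was 48.4-fold higher in 3D (edgeR adjusted p = 1.7e-05). This is not a lower bound, since its exact 95% interval, which covers counting error only, started at 39.0.

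Hes1 (ENSMUSG00000022528), a repressor that other pathways also induce, had 84.5, 85.0 and 74.0 CPM in 3D at 24 h, against 66.6, 62.8 and 67.2 CPM in 2D at 24 h. The libraries did not overlap, but the difference was 1.24-fold (log2 fold change 0.31 ± 0.11, SE; edgeR adjusted p = 0.029). This call ended in 6 of 22 alternatives, among them the fit without an expression filter (edgeR adjusted p = 0.054) and those without 3D 24 h replicate 1 (adjusted p = 0.055), 3D 24 h replicate 2 (0.0998), 2D 24 h replicate 2 (0.060) or 2D 24 h replicate 3 (0.064). The replicate block, the sixth, gave an edgeR adjusted p of 0.052. Hey2 (ENSMUSG00000019789), the third Hey repressor, had 7, 12 and 4 counts in 3D, against 2, 6 and 5 counts in 2D. The groups overlapped and the gene was not called (edgeR adjusted p = 0.62), with a ratio of 1.46 and an exact 95% counting interval of 0.710 to 3.14, so a moderate difference either way was not detectable at this depth.

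**Figure D2:**
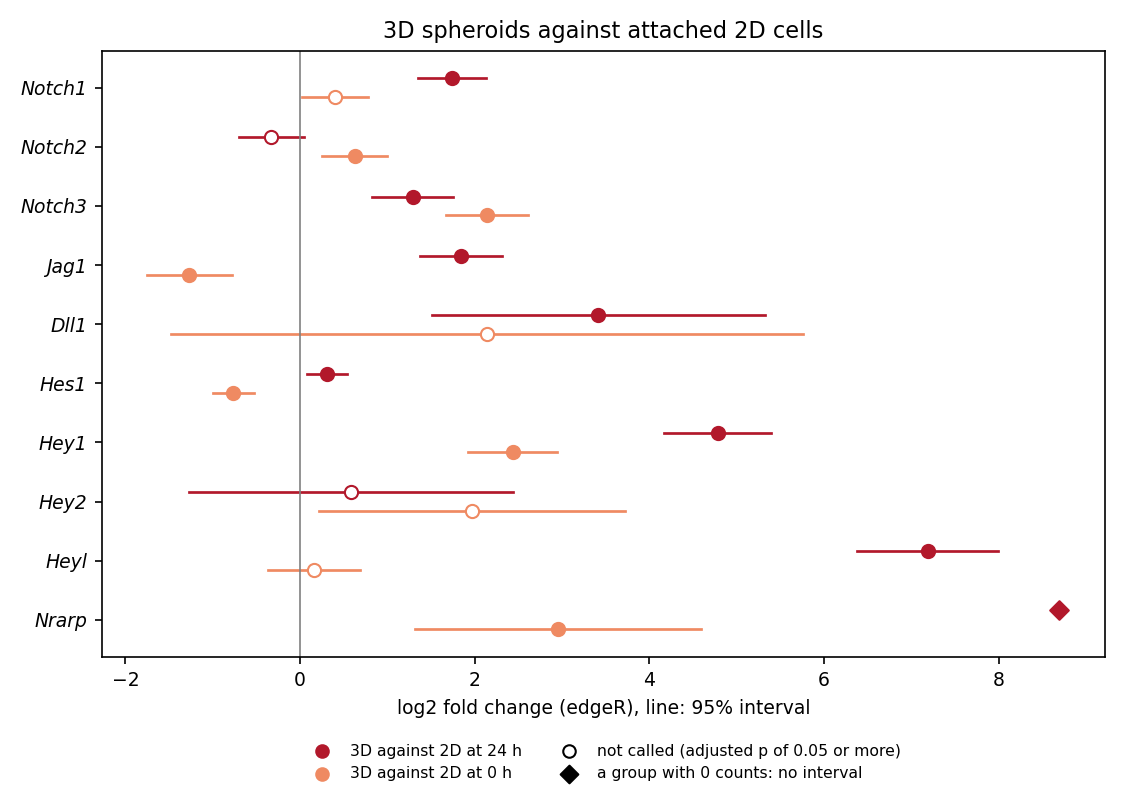
Log2 fold change of 3D against 2D at 24 h (dark red) and at 0 h (orange) for each Notch gene, from edgeR, with lines for 95% intervals; open symbols were not called. Jag1 and Hes1 lie on opposite sides of 0 at the 2 times, and Heyl is at 7.19 at 24 h and 0.16 at 0 h; the diamond for Nrarp at 24 h is a fitted value that depends on edgeR's prior count because 2D had 0 counts.

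The comparison at 0 h asked whether the cultures already differed at the start of the 24 h. In 3D, 4 Notch genes were higher (Notch2, Notch3, Hey1 and Nrarp) and 2 were lower (Jag1 and Hes1), where 23.1% of all genes were higher and 22.7% lower. The median log2 fold change was 1.29 for the 10 genes, against 0.0229 for all genes. Of the 5 genes above the filter level in all libraries, 2 were higher, 2 lower and 1 not called, with a median of 0.40.

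Notch3 showed the widest receptor difference at 0 h. It had 33.7, 40.5 and 35.7 CPM in 3D, against 7.65, 5.69 and 11.5 CPM in 2D. The groups were well apart, with Notch3 4.41-fold higher in 3D (log2 fold change 2.14 ± 0.22, SE; edgeR adjusted p = 5.6e-07). Notch2 had 49.6, 51.6 and 58.0 CPM in 3D, against 30.0, 28.2 and 44.9 CPM in 2D, and was 1.54-fold higher in 3D (edgeR adjusted p = 0.0084). Notch1 had 25.3, 31.5 and 31.4 CPM in 3D, against 26.1, 17.0 and 23.9 CPM in 2D. Its groups overlapped through 2D replicate 1, and its log2 fold change of 0.40 (95% interval 0.03 to 0.78) was not called (edgeR adjusted p = 0.076). It was called in 5 of 22 alternatives: upper-quartile scaling (0.52, edgeR adjusted p = 0.023), library totals (0.50, adjusted p = 0.027), no expression filter (0.43, adjusted p = 0.043), and without 2D 0 h replicate 1 (0.53, adjusted p = 0.040) or 3D 0 h replicate 1 (0.52, adjusted p = 0.046).

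The ligand Jag1 ran the other way at 0 h. It had 10.7, 20.1 and 11.5 CPM in 3D, against 28.6, 30.1 and 43.7 CPM in 2D. No 3D library reached the 2D range, and Jag1 was lower in 3D (log2 fold change -1.27 ± 0.23, SE; edgeR adjusted p = 0.00023). Dll1 had 2, 0 and 3 counts in the 3D libraries and 0, 0 and 1 counts in the 2D libraries. At 6 counts in all, its ratio of 5.59 had an exact 95% counting interval of 0.626 to 264, and no difference was detectable at this depth (edgeR adjusted p = 0.25).

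The targets did not move together at 0 h. Hey1 had 17.1, 18.6 and 24.9 CPM in 3D, against 3.10, 3.21 and 4.83 CPM in 2D, and was 5.41-fold higher (log2 fold change 2.44 ± 0.24, SE; edgeR adjusted p = 3.8e-07). Hes1 had 42.3, 50.2 and 50.4 CPM in 3D, against 77.5, 83.9 and 81.3 CPM in 2D, with no overlap and a lower level in 3D (log2 fold change -0.76 ± 0.11, SE; edgeR adjusted p = 2.3e-05). Heyl had 6.14, 12.4 and 7.89 CPM in 3D, against 8.77, 9.20 and 6.0 CPM in 2D. The Heyl groups overlapped, with a log2 fold change of 0.16 and a 95% interval of -0.37 to 0.68. It was not called (edgeR adjusted p = 0.64), and the value turned to -0.16 without 3D 0 h replicate 2. Nrarp had 7, 18 and 26 counts in the 3D libraries and 0, 4 and 3 in the 2D libraries after rounding. Its ratio was 8.15, with an exact 95% counting interval of 3.68 to 21.3 (edgeR adjusted p = 0.0046). Hey2 had 20, 17 and 10 counts in 3D, against 9, 0 and 4 in 2D. Its ratio of 4.04 (exact 95% counting interval 2.15 to 8.14) was not called (edgeR adjusted p = 0.059), although the libraries did not overlap. It was called with DESeq2 (adjusted p = 0.049), limma on log2(TPM + 1) (adjusted p = 0.020), limma on log2(TPM + 0.1) (adjusted p = 0.024), upper-quartile scaling (adjusted p = 0.045), library totals (adjusted p = 0.047) and without 2D 0 h replicate 1 (adjusted p = 0.018).

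Over 24 h in spheroids, 6 Notch genes rose and 2 fell, where 23.8% of all genes were higher at 24 h and 24.7% lower. The median log2 fold change was 0.68 for the 10 genes, against -0.00426 for all genes. Of the 5 genes above the filter level in all libraries, 3 rose and 2 fell, with a median of 0.60. Jag1 averaged 74.0 ± 10.9 CPM at 24 h and 14.1 ± 5.19 CPM at 0 h (SD, n = 3), a 5.22-fold rise with no overlap (edgeR adjusted p = 2.5e-07). Heyl averaged 37.5 ± 5.24 CPM at 24 h and 8.82 ± 3.24 CPM at 0 h, a 4.22-fold rise (edgeR adjusted p = 2.2e-06). Hes1 averaged 81.1 ± 6.20 CPM at 24 h and 47.6 ± 4.62 CPM at 0 h, a 1.70-fold rise (edgeR adjusted p = 2.0e-05). For each of these genes all 24 h libraries lay above all 0 h libraries.

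Dll1 reached 70 counts over the 3D libraries at 24 h, against 5 at 0 h, a ratio of 11.3 with an exact 95% counting interval of 4.63 to 36.0 (edgeR adjusted p = 0.0042). The gene passed the filter through these 24 h libraries alone. Its fitted log2 fold change of 3.40 was 4.06 without 3D 0 h replicate 3 and 2.81 without 3D 0 h replicate 2. Notch1 averaged 44.6 ± 9.71 CPM at 24 h and 29.4 ± 3.54 CPM at 0 h, a 1.52-fold rise (edgeR adjusted p = 0.0090) whose call ended without 3D 24 h replicate 1 (adjusted p = 0.058). Nrarp averaged 3.98 ± 1.35 CPM at 24 h and 1.40 ± 0.752 CPM at 0 h, a 2.81-fold rise near the threshold (edgeR adjusted p = 0.042). The edgeR call of Nrarp ended with the replicate number as a block (adjusted p = 0.057) and without 3D 0 h replicate 1 (0.14), 3D 0 h replicate 2 (0.0998), 3D 24 h replicate 1 (0.11) or 3D 24 h replicate 2 (0.14). Hey1 averaged 28.2 ± 1.5 CPM at 24 h and 20.2 ± 4.14 CPM at 0 h and was not called (edgeR adjusted p = 0.075), although its libraries did not overlap. It was called in 7 of 22 alternatives, DESeq2 among them (adjusted p = 0.048). Hey2 averaged 0.553 ± 0.371 CPM at 24 h and 1.35 ± 0.560 CPM at 0 h, with overlapping libraries and no call (edgeR adjusted p = 0.17).

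The receptors that fell in spheroids were Notch2 and Notch3. Notch2 averaged 33.0 ± 7.67 CPM at 24 h and 53.1 ± 4.40 CPM at 0 h (log2 fold change -0.68 ± 0.18, SE; edgeR adjusted p = 0.0044). Notch3 averaged 21.7 ± 4.96 CPM at 24 h and 36.6 ± 3.51 CPM at 0 h (log2 fold change -0.75 ± 0.21, SE; edgeR adjusted p = 0.0063), and its call ended without 3D 24 h replicate 3 (adjusted p = 0.052). The calls of all 3 receptors in this comparison rest on counts: with limma on the authors' log2(TPM + 1) values the adjusted p was 0.44 for Notch1, 0.29 for Notch2 and 0.33 for Notch3. That fit called 5 Notch genes, all higher, where 3498 of all genes were called higher and 2865 lower. TPM per CPM, which changes with the transcript length that the estimates imply and with the scaling of each library, moved between the same groups. In spheroids it averaged 0.260 at 24 h and 0.205 at 0 h for Notch2, 0.282 at 24 h and 0.213 at 0 h for Notch3, and 0.176 at 24 h and 0.218 at 0 h for Notch1. It was also higher at 24 h for every member that is not a receptor, such as Jag1 (0.306 at 24 h and 0.285 at 0 h) and Hes1 (1.39 and 1.25). The part of these shifts in the result was not tested.

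Over the same 24 h in attached cells, none of the 10 Notch genes rose and 5 fell, where 17.4% of all genes were higher at 24 h and 17.0% lower. The median log2 fold change was -0.52 for the 10 genes, against 0.0246 for all genes. Setting Nrarp at its ratio to the floor of 3 counts could not move this median, since Nrarp stayed below the middle genes either way. For the 5 genes above the filter level in all libraries the median was -0.30, with 3 lower and 2 not called. Heyl fell furthest, with 9 counts over the libraries at 24 h, against 315 at 0 h, a ratio of 31.9 with an exact 95% counting interval of 16.6 to 70.5 (edgeR adjusted p = 2.4e-07). Hey1 averaged 1.00 ± 0.479 CPM at 24 h and 3.71 ± 0.969 CPM at 0 h (log2 fold change -1.87 ± 0.32, SE; edgeR adjusted p = 0.00034). Notch1 averaged 13.4 ± 0.261 CPM at 24 h and 22.3 ± 4.76 CPM at 0 h (log2 fold change -0.73 ± 0.18, SE; edgeR adjusted p = 0.0058). In each of these genes the 24 h libraries all lay below the 0 h libraries.

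In these attached cells Jag1 averaged 20.6 ± 3.88 CPM at 24 h and 34.1 ± 8.33 CPM at 0 h (log2 fold change -0.73 ± 0.22, SE; edgeR adjusted p = 0.018). Its edgeR call ended without 2D 0 h replicate 3 (adjusted p = 0.11) and without 2D 24 h replicate 1 (0.076). Hes1 averaged 65.5 ± 2.38 CPM at 24 h and 80.9 ± 3.24 CPM at 0 h (log2 fold change -0.30 ± 0.11, SE; edgeR adjusted p = 0.039), and this call ended in 13 of 22 alternatives. With limma on log2(TPM + 1), Heyl alone of the Notch genes was called in 2D (adjusted p = 0.00021), and the adjusted p was 0.12 for Notch1, 0.20 for Jag1, 0.74 for Hes1 and 0.056 for Hey1. Without 2D 24 h replicate 1, 3 Notch genes were called, all lower, where 2391 of all genes were called higher and 2546 lower. Nrarp had 0 counts in 2D at 24 h and 7 at 0 h and was not called (edgeR adjusted p = 0.061), but it was called with DESeq2 (adjusted p = 0.036), with no expression filter (0.035) and without 2D 0 h replicate 1 (0.035). Notch2 (log2 fold change 0.27), Notch3 (0.10), Dll1 (2.13 from 6 counts) and Hey2 (0.09) were not called, and Notch2 was called without 2D 0 h replicate 3 (0.53, edgeR adjusted p = 0.020).

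**Figure D3:**
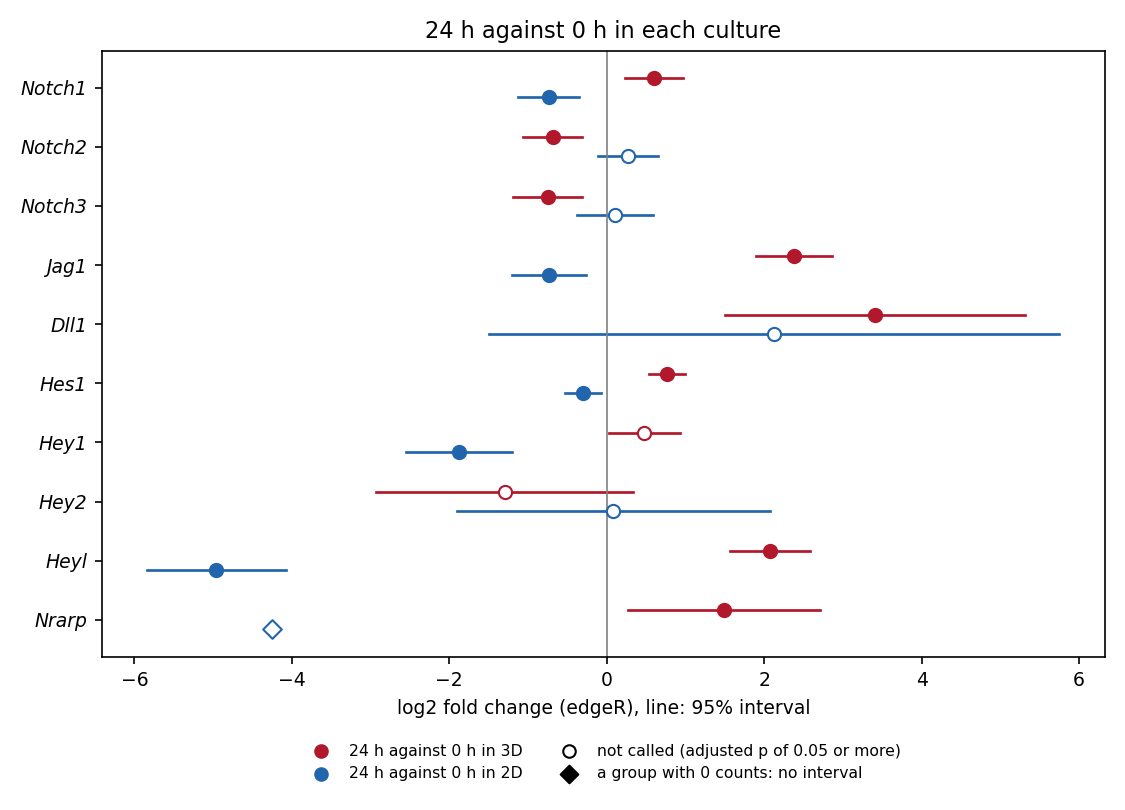
Log2 fold change of 24 h against 0 h in 3D (red) and in 2D (blue) for each Notch gene, from edgeR, with lines for 95% intervals; open symbols were not called. Notch1, Jag1, Hes1 and Heyl were above 0 in 3D and below 0 in 2D; the diamond for Nrarp in 2D depends on edgeR's prior count because the 24 h libraries had 0 counts.

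Whether the 3D to 2D difference was alike at both times was tested as the log2 fold change between 3D and 2D at 24 h minus its value at 0 h. This value was called above 0 for 6 Notch genes and below 0 for 2, where 18.7% of all genes were called above 0 and 20.5% below. The median was 1.31 for the 10 genes, against -0.0242 for all genes, and these comparisons reuse the libraries already described. The 5 genes above the filter level in all libraries split into 3 above 0 and 2 below, with a median of 1.07. The difference was 7.03 ± 0.48 for Heyl (SE; edgeR adjusted p = 5.7e-09), 3.11 ± 0.32 for Jag1 (adjusted p = 7.9e-07) and 2.35 ± 0.39 for Hey1 (adjusted p = 0.00012). By the same edgeR test it was 1.34 ± 0.25 for Notch1 (adjusted p = 0.00046) and 1.07 ± 0.15 for Hes1 (adjusted p = 3.1e-05). Nrarp was called as well (edgeR adjusted p = 0.016), but its size cannot be given because 2D had 0 counts at 24 h, and the call ended without 2D 0 h replicate 2 (adjusted p = 0.059). Jag1 and Hes1 thus changed side, being higher in 3D at 24 h, where the Hes1 call was fragile as given above, and lower in 3D at 0 h.

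For the other receptors the value was below 0, at -0.95 ± 0.25 for Notch2 (SE; edgeR adjusted p = 0.0061) and -0.85 ± 0.31 for Notch3 (adjusted p = 0.036). The Notch3 call ended in 12 of 21 alternatives. With limma on log2(TPM + 0.1) its adjusted p was 0.52, and leaving out any single library other than 2D 0 h replicate 3 or 3D 24 h replicate 1 gave edgeR adjusted p values of 0.055 to 0.12. With limma on log2(TPM + 1) the adjusted p was 0.051 for Notch2 and 0.10 for Notch1. Dll1 (edgeR adjusted p = 0.77) and Hey2 (edgeR adjusted p = 0.39) were not called, with 95% intervals of -3.53 to 6.08 and -3.96 to 1.19. Dll1 was called with limma on log2(TPM + 1) (1.00, limma adjusted p = 0.028).

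The summed receptor level per transcript length, in TPM, was larger in every 3D library than in every 2D library of its time. Notch1, Notch2 and Notch3 summed to 22.6 ± 5.42 TPM in 3D and 13.5 ± 0.0987 TPM in 2D at 24 h, and to 25.1 ± 3.35 TPM in 3D and 12.4 ± 2.83 TPM in 2D at 0 h (SD, n = 3). The lowest 3D library was at 19.2 TPM at 24 h, against 13.6 TPM in the highest 2D library, and at 21.3 TPM at 0 h, against 15.3 TPM. An exact permutation test of 3 libraries against 3 cannot give a p below 0.1, so these sums are given as a description. At 24 h Notch2 made up 38.0% ± 4.50 of the receptor TPM in 3D and 66.8% ± 2.09 in 2D. Notch3 made up 27.2% ± 4.23 in 3D and 13.3% ± 0.942 in 2D, and Notch1 34.8% ± 3.16 in 3D and 19.8% ± 3.03 in 2D. None of these shares at 24 h overlapped between the cultures. At 0 h Notch3 made up 31.3% ± 6.51 in 3D and 14.8% ± 4.91 in 2D, again without overlap. The Notch2 share at 0 h did overlap, at 41.2% to 45.7% in 3D and 35.7% to 60.0% in 2D. The Notch1 share in 2D at 0 h ran from 26.2% to 53.9% and overlapped the Notch1 shares of both 3D groups. Across the 12 libraries TPM per CPM varied 1.58-fold for Notch1, 1.98-fold for Notch2 and 2.05-fold for Notch3. The sums and shares therefore also hold changes in that ratio.

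**Figure D4:**
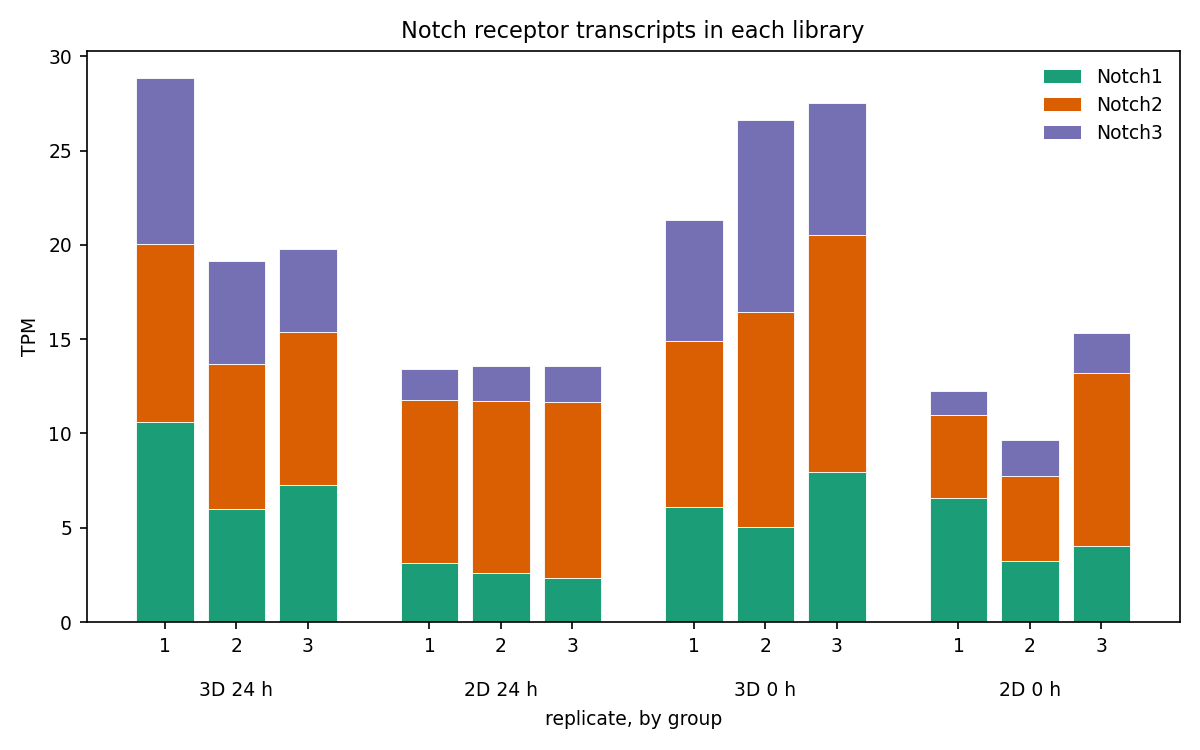
TPM of Notch1, Notch2 and Notch3 stacked for each of the 12 libraries, grouped by culture and time. Every 3D bar is taller than every 2D bar of its time, and the Notch3 segment ran from 4.44 to 10.2 TPM in 3D libraries and from 1.27 to 2.12 TPM in 2D libraries.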

How the data were processed

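The 12 libraries were grouped by culture and time from their labels, 3 to a group. Per the submitters' processing notes the reads were handled with FastQC 0.11.9, STAR and RSEM on build GRCm39, with no settings named. The authors deposited 1 table of expected counts per gene, which RSEM estimates and which need not be whole, and 1 table of log2(TPM + 1) values, which were turned back to TPM for levels. Expected counts were rounded and tested with edgeR 4.0.16 in R 4.3.3: TMM scaling, filterByExpr with a minimum count of 10, a quasi-likelihood fit of 4 group terms with 8 residual degrees of freedom, and Benjamini-Hochberg adjustment over all genes tested. Alternatives used DESeq2 1.42.0, limma 3.58.1, other scalings and filters, and left out each library. Each count ratio has an exact 95% interval that covers counting error only, and a group at 0 counts was set to 3 counts. Replicates differed by more than sampling noise (lowest chi-square per degree of freedom 4.56). All 10 Notch genes are named in every comparison; they and the settings were chosen with earlier results of these data known. Other pathway genes and cell markers were not used here, as no table pairs their names with the IDs.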

Additional observations from a re-analysis of the deposited data

Results flagged for a closer look

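For 8 of the 10 Notch genes the change between 3D and 2D cultures differed between the times by edgeR's test of that difference itself (24 h minus 0 h, log2), where 18.7% of all genes were called above 0 and 20.5% below. The difference was 7.03 for Heyl, 3.11 for Jag1, 2.35 for Hey1, 1.34 for Notch1 and 1.07 for Hes1. It was -0.95 for Notch2 and -0.85 for Notch3. For Nrarp the fitted difference was 5.74, but its size rests on edgeR's prior count because 2D had 0 counts at 24 h. The edgeR adjusted p ran from 5.7e-09 for Heyl to 0.036 for Notch3, whose call ended in 12 of 21 alternatives. Jag1 and Hes1 were higher in 3D at 24 h and lower in 3D at 0 h.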

How the results depend on the processing

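Of the 22 alternative settings, 12 left out 1 library. Over 50 single-gene results, 982 alternative values kept direction and side of the threshold, 56 lost a call, 24 gained one and 7 turned sign, and the cause was not tested. Against 5 Notch genes called for 24 h against 0 h in 2D, limma on log2(TPM + 1) called 1 and on log2(TPM + 0.1) called 2. The same fits called 4148 and 4084 of all genes, against 4930 in the main fit. Leaving out 1 library gave 3 to 6 Notch genes and 3424 to 5247 of all genes. Against 8 called in 3D over time, both limma fits called 5, where they called 6363 and 6157 of all genes, against 6954. Against 8 called for the difference of the changes, limma on log2(TPM + 0.1) called 5, where it called 4749 of all genes, against 5610. Between cultures, 5 to 8 Notch genes were called at 0 h and 6 to 8 at 24 h, where 5612 to 6849 of all genes were called at 0 h and 5027 to 6496 at 24 h. The lowest of these Notch counts, 5 at 0 h and 6 at 24 h, came from settings that left some members untested. No value that changed sign was called: leaving out 1 library gave -0.16 to 0.38 for Heyl at 0 h, -0.058 to 1.01 for Hey2 at 24 h, -0.11 to 0.45 for Notch3 and -0.51 to 1.27 for Hey2 over time in 2D, and -0.51 to 2.91 for Dll1 in the difference of the changes.

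Library totals put the median of all genes at 0.12 for both culture comparisons, upper-quartile scaling at 0.14 at 0 h, and limma on log2(TPM + 1) at 0.13 at 0 h, 0.17 over time in 2D and -0.10 in the difference of the changes. At 0 h, genes called higher and lower numbered 4025 and 2610 with upper-quartile scaling, 3918 and 2697 with library totals and 3641 and 2229 with that limma fit, against 3309 and 3255 with TMM. At 24 h they were 3648 and 2708 with library totals, against 2815 and 3276. Over time in 2D they were 2891 and 1257 with limma, against 2489 and 2441. The pseudocount of 1 shrinks low genes by construction: Heyl at 24 h had 3.79, Hey1 3.48, Nrarp 1.85 and Dll1 1.10.

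Replicate numbers are shared between groups, but same-numbered libraries did not deviate together (correlations -0.234 to 0.0518, with 0 of 18 over 0.1). With the replicate number as a block, Hes1 was no longer called at 24 h (edgeR adjusted p = 0.052) or over time in 2D (0.068), nor Nrarp over time in 3D (0.057), while Hey1 was called over time in 3D (0.0499). A minimum count of 50 left Dll1, Hey2 and Nrarp untested in every comparison. Fitting only the groups compared left Dll1 and Nrarp untested at 0 h, Hey2 at 24 h and all 3 over time in 2D, and it has no form for the difference of the changes. Low counts of Dll1, Hey2 and Nrarp limit their precision.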
